A study of Arabidopsis thaliana with 20 samples.

Results

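The 36 genes described here are the plastid-encoded genes for the ribosome (rps and rpl families), for the plastid's own RNA polymerase (rpo family) and for the NDH complex (ndh family), together with the maturase gene matK. They were taken by their identifiers from the gene count tables, where they are 36 of 28775 genes and 36 of 133 plastid identifiers. The tissue was the unopened flower bud of *Arabidopsis thaliana*, taken at about 4 weeks of age from plants grown with 16 h of light and 8 h of dark. Libraries of 3 kinds of RNA were made from dxo1 and from Col-0, the wild type, with 2 libraries in each group: RNA captured by its NAD cap, total RNA, and mRNA. One more kind, GMUCT, which reads uncapped and cleaved transcripts, has 2 dxo1 libraries and none from Col-0. Small RNA libraries were also made from dxo1, from the dxo1 rdr6 line and from Col-0, but their 6 tables list 0 plastid identifiers and are not used. The labels give neither the dxo1 allele, nor how the mRNA was selected, nor whether replicates came from separate plants, so p-values measure the spread between these libraries, which may be technical.

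Plastids keep a small genome of bacterial origin. Its genes are transcribed by a bacterial-type polymerase, whose core subunits are the rpo products, and by phage-type polymerases encoded in the nucleus. The resulting messages are translated on bacterial-type ribosomes, whose proteins come partly from plastid rps and rpl genes and partly from the nucleus. The NDH complex carries electrons around photosystem I, the maturase assists the splicing of plastid introns, and both NDH and ribosome need nuclear partners. Plastid messages are usually transcribed as long joint precursors that are cut into shorter RNAs. NAD is a metabolic cofactor that can stand at the 5′ end of an RNA in place of the usual cap, and DXO1 is the *Arabidopsis* enzyme of the family that removes such caps.

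The identifiers are not paired with gene names in the files, and the RefSeq annotation of TAIR10.1 used for nuclear symbols matched 0 of the 36. The genes are therefore called by their identifiers, and those with close numbers are described side by side. RefSeq lists the plastid symbols rps7, rps12, rpl2, rpl23 and ndhB more than once. The tables keep reads with several matches in an entry of their own, so copies of one gene are counted incompletely.

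Of the 36 genes, 31 had enough reads to be tested in every comparison. The reads of ATCG00830, ATCG00840, ATCG00890 and ATCG00900 never exceeded 1 in any library. ATCG00040 was at 0 in all 12 NAD capture, total RNA and mRNA libraries but held 208 and 183 reads in the GMUCT libraries. The GMUCT tables list 45 fewer plastid identifiers and 27416 genes in all, so this difference is between tables of unequal content and no fold is given. Whether the unequal content also changes the counts of the other plastid genes was not tested. This limit applies to every comparison with GMUCT below. Gene counts per library ran from 1144896 to 3178702 in NAD capture, 2576448 to 8309456 in total RNA and 10100250 to 16833010 in mRNA. The GMUCT libraries held 30883266 and 19769742. Reads not assigned to a gene made up 91.8 to 96.1% of NAD capture, 90.8 to 91.2% of total RNA, 20.3 to 21.8% of mRNA and 18.2 to 28.3% of GMUCT libraries.

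Some libraries stood apart. The first NAD capture library of Col-0 differed from the second far beyond counting noise, with a chi-square per degree of freedom of 33.7 against 3.98 between the dxo1 capture libraries. The GMUCT libraries also differed widely from each other, at 29.0, and the dxo1 mRNA libraries at 10.3, while the other groups stood between 2.26 and 5.48. Nuclear ribosomal RNA took 14.2% of gene counts in the first Col-0 capture library, against 6.83% in the second and 8.21 and 6.98% in the dxo1 capture libraries. In addition, DXO1 itself (AT4G17620) did not follow the genotype label in replicate 1. It was at 511 and 9.27 CPM, its reads scaled to a common library total, in the total RNA libraries labelled dxo1, against 28.5 and 25.2 CPM in Col-0. In mRNA it was at 509 and 19.2 CPM in libraries labelled dxo1, against 48.5 and 48.8 CPM in Col-0, and GMUCT libraries labelled dxo1 held 1549 and 19.8 CPM. Captured RNA held 23.9 and 23.7 CPM in libraries labelled dxo1 and 10.5 and 33.8 CPM in Col-0. Groups below carry the genotype of their labels. For the main comparisons that use dxo1, the number of genes called and the median are also given without the dxo1 replicate 1 libraries. Capture against mRNA, values of single genes, shares of reads and the lists of partner and photosynthesis genes are given with all libraries only, unless stated. The 7 flower bud marker genes (AP1, AP3, PI, AG, SEP1, SEP2 and SEP3) summed to 544 to 1550 CPM in NAD capture, 717 to 893 in total RNA, 1419 to 1760 in mRNA and 1327 to 1371 in GMUCT libraries. None of them was at 0 throughout, while the root markers PYK10 and RHD6 summed to at most 1.26 CPM and the 3 seed markers reached 34.9 CPM in NAD capture.

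The 36 genes together took 0.407 and 0.387% of gene counts in dxo1 NAD capture, and 0.934 and 0.422% in Col-0 NAD capture. In total RNA the share was 0.817 and 1.10% in dxo1 and 0.901 and 0.946% in Col-0. In mRNA it was 0.613 and 0.599% in dxo1 and 0.547 and 0.563% in Col-0, and GMUCT had 0.559 and 0.672%. Total RNA thus had the higher shares and NAD capture the lower ones, except that the first Col-0 capture library lay within the total RNA range.

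Set against 33 plastid-encoded photosynthesis genes, the same sums fell into separate ranges. For every 1000 reads of photosynthesis genes, the 36 genes had 114 and 126 reads in dxo1 NAD capture and 116 and 108 in Col-0 NAD capture. Total RNA had 109 and 148 in dxo1 and 112 and 122 in Col-0. The values were 1328 and 1348 in GMUCT, and 1249 and 1130 in dxo1 mRNA against 1023 and 989 in Col-0 mRNA. NAD capture and total RNA overlapped, and all of their 8 libraries lay below the 6 GMUCT and mRNA libraries. In GMUCT, ATCG00790 alone held 61.2 and 69.7% of the reads of the 36 genes. Without it, GMUCT had 67017 and 40302 reads of these genes against 129883 and 98553 of photosynthesis genes. The dxo1 mRNA libraries then had 45307 and 41196 against 55064 and 53526, a higher ratio than in GMUCT.

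**Figure D1:**
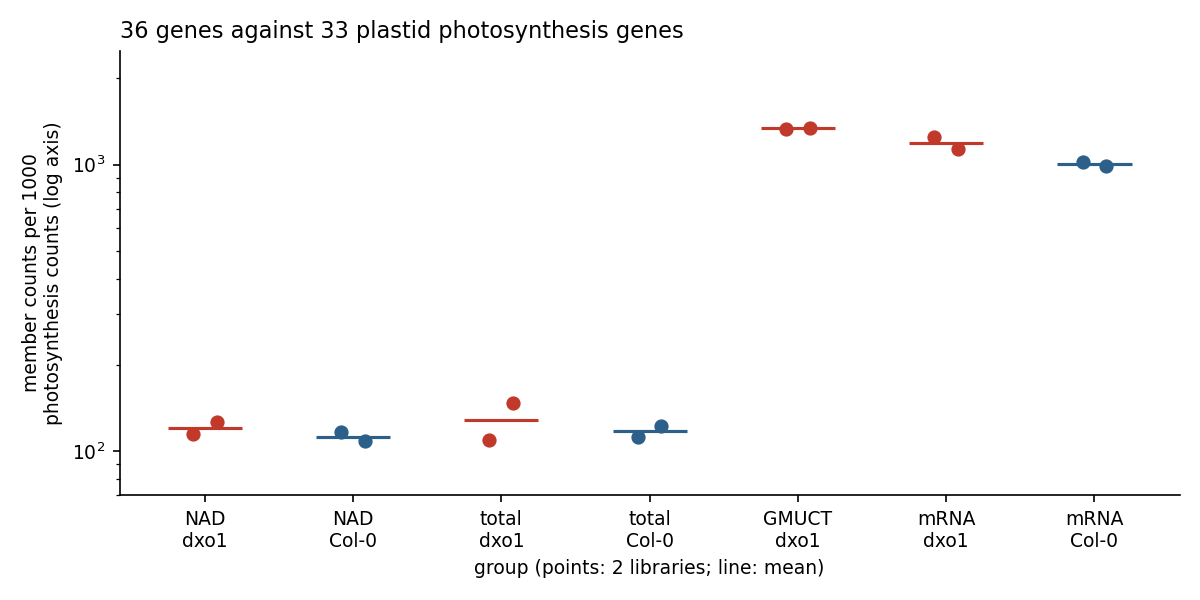
Reads of the 36 genes per 1000 reads of 33 plastid photosynthesis genes (log axis) in each library, by group; points are the 2 libraries of a group, the line their mean, red dxo1 and blue Col-0. NAD capture and total RNA lie between 108 and 148, GMUCT and mRNA between 989 and 1348. In GMUCT, ATCG00790 alone holds 61.2 and 69.7% of the reads of the 36 genes.

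The first comparison set total RNA against mRNA. Most of the genes were far more abundant in total RNA, but a few were lower there, and the order of the genes differed greatly between both kinds of RNA. In dxo1, 25 of 31 tested genes were higher in total RNA and 3 were lower (edgeR quasi-likelihood test, Benjamini-Hochberg adjusted p at most 0.05), where 27.1% of all genes were called, 13.5% as higher and 13.6% as lower. In Col-0, 25 were higher and 4 lower, against 19.1% of all genes called, 9.62% as higher and 9.5% as lower. The same 25 genes were higher in both genotypes. The median log2 difference was 2.10 in dxo1 and 2.29 in Col-0, against -0.01 and -0.03 for all genes tested. Of the 25 in Col-0, ATCG01070 reached the filter level in total RNA alone, and without it the count there is 24 of 30 with a median of 2.24. Without the dxo1 replicate 1 libraries 29 genes were called in dxo1, 26 higher and 3 lower, with a median of 2.22. These included 27 of the 28 called with all libraries, the exception being ATCG00440.

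ATCG00380 had the largest difference in both genotypes. In dxo1 it was at 632 and 1102 CPM in total RNA and 11.9 and 10.8 CPM in mRNA. In Col-0 it was at 1025 and 748 CPM in total RNA and 6.70 and 7.85 CPM in mRNA. Its lowest total RNA library was thus above its highest mRNA library by a wide margin, with log2 differences of 6.26 ± 0.28 (SE, adjusted p = 6.84e-09, edgeR) in dxo1 and 6.92 ± 0.29 (adjusted p = 3.08e-09) in Col-0. ATCG01050 held 464 and 509 CPM in dxo1 total RNA and 8.01 and 9.55 CPM in dxo1 mRNA. In Col-0 it held 971 and 700 CPM in total RNA and 11.2 and 6.97 CPM in mRNA. Its differences of 5.79 ± 0.24 in dxo1 and 6.54 ± 0.24 in Col-0 came next to those of ATCG00380.

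In the run from ATCG00160 to ATCG00190, all 4 genes were higher in total RNA, by 3.84 to 5.19 on the log2 scale in dxo1 and 4.28 to 5.30 in Col-0. ATCG00170, for example, was at 673 and 932 CPM in dxo1 total RNA against 23.8 and 21.9 CPM in dxo1 mRNA. It was at 713 and 757 CPM in Col-0 total RNA against 18.4 and 18.8 CPM in Col-0 mRNA, so that neither genotype's groups came near each other. ATCG00330 stood 4.36 ± 0.13 higher in dxo1 and 4.87 ± 0.13 higher in Col-0. In the run from ATCG01070 to ATCG01120, 5 of 6 genes were higher in each genotype, and ATCG01120 was lower. ATCG01070 had 57.5 and 48.1 CPM in dxo1 total RNA against 0.954 and 1.31 CPM in dxo1 mRNA.

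The runs of 3 numbers differed from each other. ATCG00660 had 146 and 192 CPM in dxo1 total RNA against 4.64 and 6.27 CPM in dxo1 mRNA, and 136 and 193 CPM in Col-0 total RNA against 2.29 and 3.20 CPM in Col-0 mRNA. Its log2 differences of 4.96 ± 0.23 in dxo1 and 5.85 ± 0.24 in Col-0 were larger than those of its neighbours. ATCG00640 stood at 2.30 ± 0.18 in dxo1 and 2.56 ± 0.19 in Col-0, and ATCG00650 at 1.60 ± 0.13 and 2.29 ± 0.14. In the run from ATCG00420 to ATCG00440 the differences were smaller, at 0.56 to 1.98 in dxo1 and 0.87 to 1.56 in Col-0. ATCG00420 had 450 and 597 CPM in dxo1 total RNA against 123 and 143 CPM in dxo1 mRNA, and 363 and 420 CPM in Col-0 total RNA against 128 and 136 CPM in Col-0 mRNA. All 3 genes of both runs passed in both genotypes, and ATCG00050 did too, at 3.42 ± 0.19 in dxo1 and 3.64 ± 0.21 in Col-0.

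The run from ATCG00740 to ATCG00840 behaved differently: its differences were small and of both signs. It took 42.9 and 44.5% of the reads of the 36 genes in dxo1 total RNA, against 83.8 and 83.3% in dxo1 mRNA. In Col-0 it took 36.6 and 42.2% in total RNA, against 84.1 and 84.1% in mRNA. Of its 9 tested genes, 5 were higher in total RNA in each genotype, by 1.20 to 1.70 in dxo1 and 1.25 to 1.64 in Col-0. ATCG00790 was lower in total RNA, with 748 and 1097 CPM in dxo1 against 1493 and 1406 CPM in dxo1 mRNA. In Col-0 it had 645 and 807 CPM in total RNA against 1409 and 1453 CPM in mRNA, so the groups did not overlap in either genotype. The log2 difference was -0.65 ± 0.16 (adjusted p = 0.0125, edgeR) in dxo1 and -0.98 ± 0.17 (adjusted p = 0.00188) in Col-0. ATCG00820 was called lower in Col-0 (-0.56 ± 0.17, adjusted p = 0.0329) and not in dxo1 (-0.25 ± 0.16, adjusted p = 0.273), and the difference between genotypes was not tested. ATCG00770 and ATCG00800 did not pass in either genotype.

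ATCG01020 was the gene most reduced in total RNA relative to mRNA. It was at 15.3 and 18.7 CPM in dxo1 total RNA against 82.4 and 77.9 CPM in dxo1 mRNA, and at 22.1 and 21.8 CPM in Col-0 total RNA against 77.4 and 90.4 CPM in Col-0 mRNA. Its log2 differences were -2.21 ± 0.14 (adjusted p = 3.67e-07, edgeR) in dxo1 and -1.93 ± 0.15 (adjusted p = 2.09e-06) in Col-0. ATCG01010, the neighbouring number, went the other way, with 3.59 ± 0.16 in dxo1 and 4.17 ± 0.16 in Col-0. ATCG01120 had log2 differences of -0.99 ± 0.19 in dxo1 and -0.94 ± 0.21 in Col-0.

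**Figure D2:**
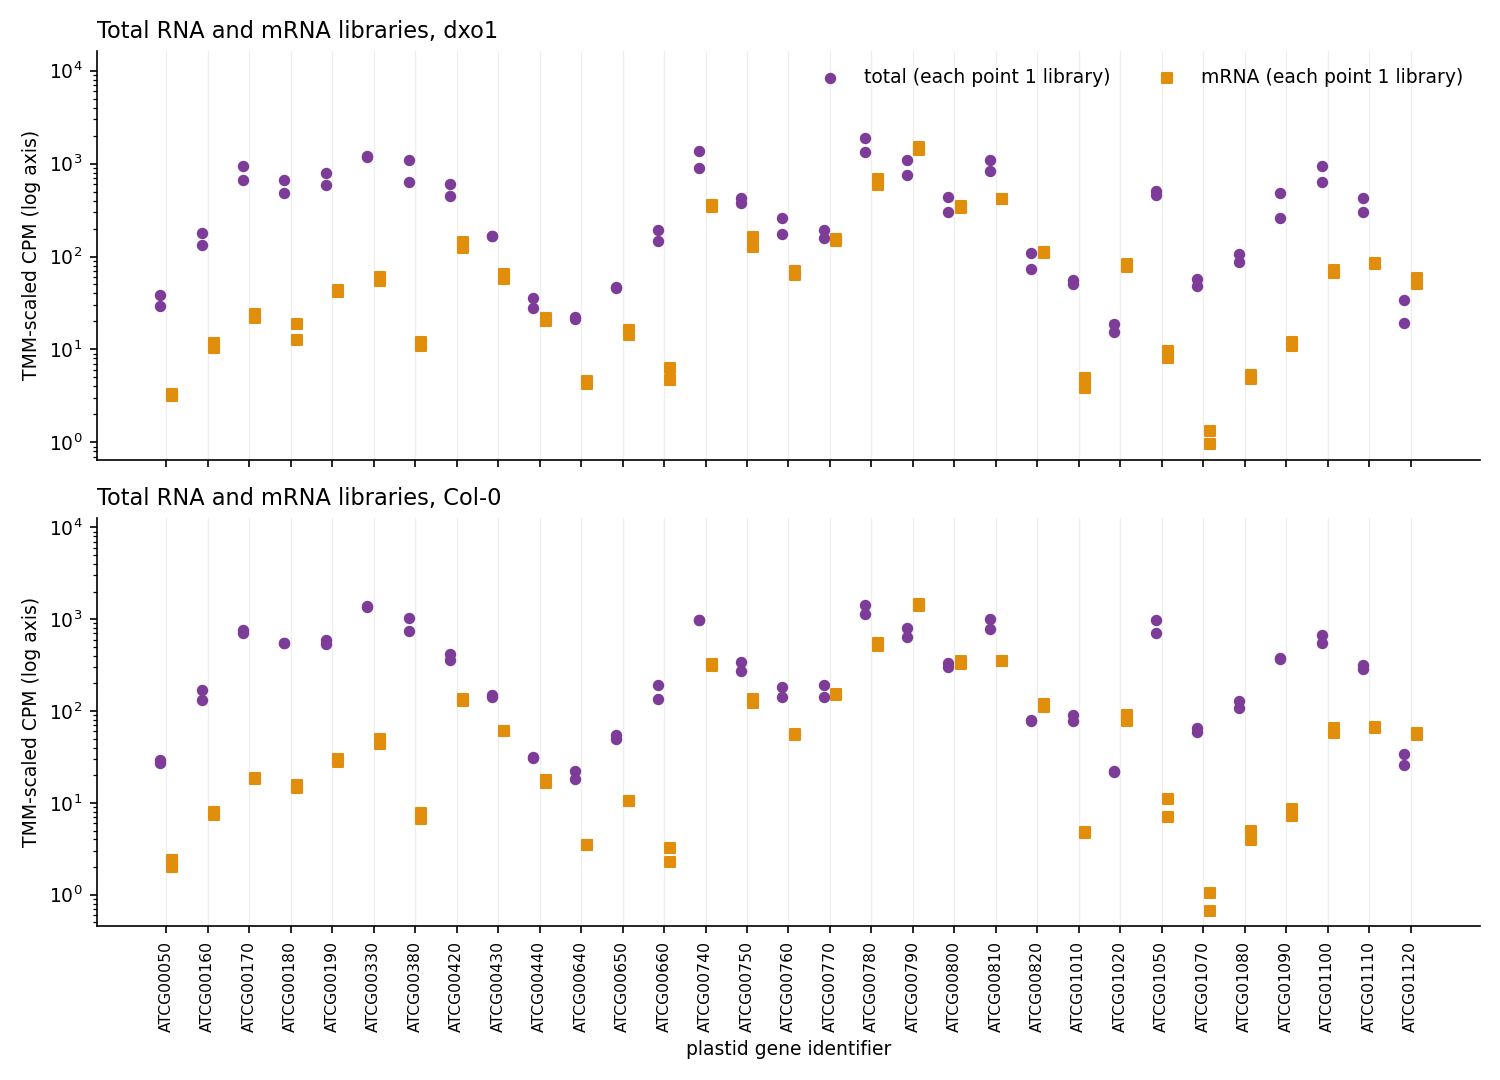
TMM-scaled CPM (log axis) of the 31 tested genes in total RNA (purple circles) and mRNA (orange squares), each point 1 library, with dxo1 above and Col-0 below. Most genes have total RNA points well above mRNA points; ATCG00790, ATCG01020 and ATCG01120 have them below in both genotypes.

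The 33 plastid photosynthesis genes were shifted further in the same direction, with 31 higher and 1 lower in dxo1 (median 5.77) and 30 higher and 1 lower in Col-0 (median 6.24). Within the mRNA libraries alone, 29 of these 33 passed the filter. The rest were tested through their total RNA reads and could hardly come out lower, and both counts and medians include them. The counts of the nuclear partners lay elsewhere. Of 38 nuclear-encoded plastid ribosomal proteins, 0 were higher and 16 lower in dxo1, and 0 were higher and 19 lower in Col-0. EMB3136 was the most significant of these, at -2.09 ± 0.14 in dxo1 and -1.82 ± 0.15 in Col-0. Among 21 polymerase partners, 2 were higher and 2 lower in dxo1, against 1 higher and 3 lower in Col-0. MURE was higher in both genotypes, at 0.87 ± 0.11 in dxo1 and 0.59 ± 0.12 in Col-0. Among 20 nuclear NDH subunits and assembly factors, 3 were higher and 3 lower in dxo1, against 0 higher and 2 lower in Col-0. NdhL and NdhS were the lower 2 in Col-0, at -0.81 ± 0.17 and -0.75 ± 0.20.

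These differences depend on how libraries are scaled. With library totals alone the median of all genes moved to -0.96 in dxo1 and -0.90 in Col-0, and 1.93% and 1.87% of calls were higher, against 49.9% and 50.3% with TMM. The median of the 31 genes was then 1.15 in dxo1 and 1.42 in Col-0, ATCG00440 and ATCG00770 changed sign in both genotypes, and ATCG00800 changed sign in dxo1.

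The second comparison set GMUCT against mRNA, both from dxo1, and thus asked which of these RNAs are read as uncapped or cleaved molecules. A lower value in GMUCT does not show that an RNA is capped or intact, which was not measured for these genes. Here 6 genes read in both kinds of library were higher in GMUCT and 21 were lower. Over all genes, 64.8% were called, 32.7% as higher and 32% as lower, and the median of all genes was 0.00. ATCG00040, described above, was also called higher because it was at 0 in mRNA. ATCG01050, ATCG01070 and ATCG01080, counted among the 21, passed the filter through mRNA alone and could hardly come out other than lower. Without these 4, 6 of 28 were higher and 18 lower, with a median log2 difference of -1.37, and over all 32 tested genes the median was -1.59.

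ATCG00790 and ATCG00330 dominated the GMUCT reads. ATCG00790 took 61.2 and 69.7% of the reads of the 36 genes in GMUCT, against 34.1 and 31.9% in dxo1 mRNA. It had 3723 and 4831 CPM in GMUCT, against 2005 and 1883 CPM in dxo1 mRNA, with a log2 difference of 1.14 ± 0.15 (adjusted p = 0.000284, edgeR). ATCG00330 took 20.6 and 12.1% of the reads in GMUCT, against 1.26 and 1.36% in dxo1 mRNA. It had 1256 and 842 CPM in GMUCT against 74.0 and 80.4 CPM in dxo1 mRNA. This was the largest rise among genes read in both, a 13.6-fold difference (log2 difference 3.76 ± 0.21, adjusted p = 5.75e-06).

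ATCG00440 had the second largest rise among genes read in both. It had 135 and 111 CPM in GMUCT against 27.1 and 29.1 CPM in dxo1 mRNA, a log2 difference of 2.13 ± 0.13 (adjusted p = 7.36e-06, edgeR). The adjoining number ATCG00430 was lower instead, with 9.17 and 7.10 CPM in GMUCT against 76.9 and 87.1 CPM in mRNA. ATCG00420 was lower still, with 1.83 and 2.66 CPM in GMUCT against 166 and 191 CPM in mRNA. Its 80.7-fold difference (log2 difference -6.34 ± 0.19, adjusted p = 2.54e-06) was the largest fall. Within this run of 3 numbers the genes thus parted in direction, with no overlap between the GMUCT and mRNA libraries of any of them.

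The run from ATCG00740 to ATCG00840 also split. ATCG00770 had 4.06 and 3.76 CPM in GMUCT against 208 and 198 CPM in dxo1 mRNA (log2 difference -5.69 ± 0.13, adjusted p = 1.12e-06, edgeR). ATCG00780 had 26.7 and 26.1 CPM in GMUCT against 788 and 912 CPM in dxo1 mRNA, a log2 difference of -5.01 ± 0.14. ATCG00750 was lower by a log2 difference of -4.16 ± 0.18 and ATCG00740 by -2.40 ± 0.12. Next to them in number, ATCG00790 was higher, and ATCG00800 did not pass (-0.40 ± 0.16, adjusted p = 0.0546). In the run from ATCG01070 to ATCG01120 all 6 genes were lower, though ATCG01070 and ATCG01080 were tested through mRNA reads alone. ATCG01110 was at 2.72 and 2.24 CPM in GMUCT against 115 and 112 CPM in dxo1 mRNA. ATCG01070 and ATCG01080 gave too few GMUCT reads for a fold, with 2 and 2 reads for the first and 1 and 4 reads for the second.

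**Figure D3:**
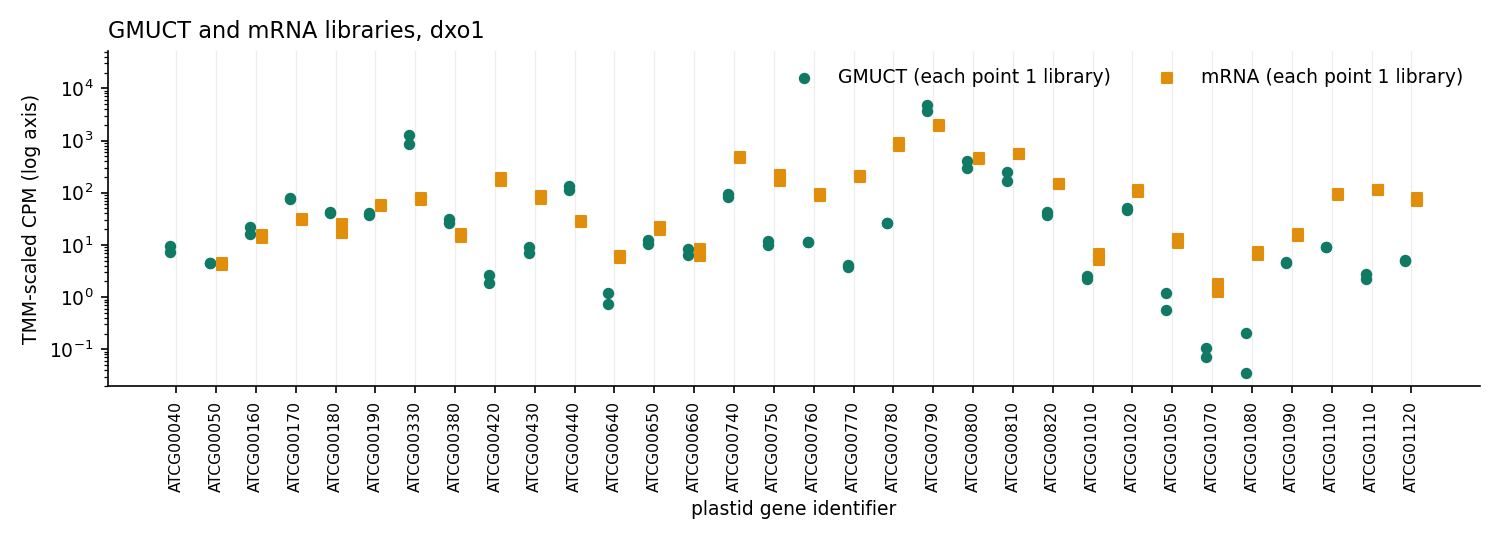
TMM-scaled CPM (log axis) of the tested genes in the GMUCT (green circles) and mRNA (orange squares) libraries of dxo1, each point 1 library; ATCG00040 has no mRNA points because it was at 0. ATCG00330, ATCG00440 and ATCG00790 have GMUCT points above mRNA, while ATCG00420, ATCG00770 and ATCG01110 have them far below.

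ATCG00170, ATCG00180 and ATCG00380 were the other genes higher in GMUCT, at 1.32 ± 0.10, 1.00 ± 0.18 and 0.92 ± 0.15, and ATCG00190 was lower at -0.53 ± 0.10. Of the nuclear partners, 16 of 20 NDH subunits and assembly factors were higher in GMUCT and 1 was lower, among them CRR1 at 3.23 ± 0.14 and, as the lower one, CRR6 at -1.85 ± 0.14. Polymerase partners were higher in 13 of 21 cases and lower in 4, with the sigma factor SIG2 at 1.68 ± 0.12. Plastid ribosomal proteins from the nucleus were higher in 11 of 38 cases and lower in 18, with RPL12-A at 3.03 ± 0.13. Photosynthesis genes of the plastid were higher in 10 and lower in 18 of 30 tested. Without the replicate 1 libraries of dxo1, whose DXO1 level goes against the label, 28 of the genes were called as before, with a median of -1.48.

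The third comparison set NAD capture against total RNA and asked which of these RNAs were enriched in the capture. It uses the same total RNA libraries as the first comparison, so the comparisons are not independent. In dxo1 most of the genes were depleted: 1 of 31 was higher and 19 were lower, against 36.5% of all genes called, 18.4% as higher and 18.1% as lower. The median log2 difference of the 31 genes was -1.51, against 0.04 for all genes. In Col-0, 3 were higher and 4 lower, against 24.2% of all genes called, 13.5% as higher and 10.7% as lower. The median there was -0.11, against 0.06 for all genes. The 4 lower genes of Col-0, ATCG00380, ATCG00420, ATCG00780 and ATCG00810, were also lower in dxo1. In dxo1 the direction turned when mRNA took the place of total RNA. Against mRNA, 15 of the genes were higher and 4 lower in dxo1 capture (median 1.30), and 16 were higher and 1 lower in Col-0 capture (median 2.50). The share and median of all genes against mRNA are not given here. These counts therefore do not show whether the 31 genes stand out from the rest.

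ATCG01020 was the one gene higher in the capture of both genotypes. It had 56.5 and 59.5 CPM in dxo1 capture against 13.1 and 15.8 CPM in dxo1 total RNA. In Col-0 it had 96.5 and 65.6 CPM in capture against 18.8 and 18.7 CPM in total RNA. All 4 capture libraries lay above all 4 total RNA libraries, with a log2 difference of 1.98 ± 0.25 (adjusted p = 0.000472, edgeR) in dxo1 and 2.08 ± 0.26 (adjusted p = 0.00117) in Col-0. Against mRNA in place of total RNA the dxo1 difference was -0.26, so its captured level lay near its level in mRNA. ATCG00640 and ATCG00650 were called higher in Col-0. ATCG00640 had 28.9 and 28.0 CPM in dxo1 capture against 19.0 and 18.1 CPM in dxo1 total RNA, and 165 and 26.8 CPM in Col-0 capture against 19.0 and 15.6 CPM in Col-0 total RNA. The log2 difference was 0.62 ± 0.60 (adjusted p = 0.44) in dxo1 and 2.35 ± 0.63 (adjusted p = 0.0221) in Col-0, and the large Col-0 value came from the first library. Without that library it was 0.58 and the call was lost, and ATCG00650 likewise fell to 0.34, against 2.36 with it.

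ATCG00380 was the gene most depleted relative to total RNA. It had 68.7 and 58.6 CPM in dxo1 capture against 542 and 936 CPM in dxo1 total RNA. In Col-0 it had 245 and 74.2 CPM in capture against 872 and 641 CPM in total RNA. Every capture library was below every total RNA library, at log2 differences of -3.53 ± 0.52 (adjusted p = 0.000939, edgeR) in dxo1 and -2.27 ± 0.50 (adjusted p = 0.00993) in Col-0. Against mRNA it was higher in capture instead, by 2.69 in dxo1 and 4.58 in Col-0. ATCG00810 had 108 and 59.1 CPM in dxo1 capture against 716 and 918 CPM in dxo1 total RNA. In Col-0 it had 241 and 99.8 CPM in capture against 658 and 859 CPM in total RNA. Its differences were -3.28 ± 0.45 in dxo1 and -2.17 ± 0.44 in Col-0. ATCG00780 stood at -2.70 ± 0.47 in dxo1 and -2.14 ± 0.46 in Col-0, and ATCG00420 at -3.07 ± 0.47 and -1.63 ± 0.46 in the same order.

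**Figure D4:**
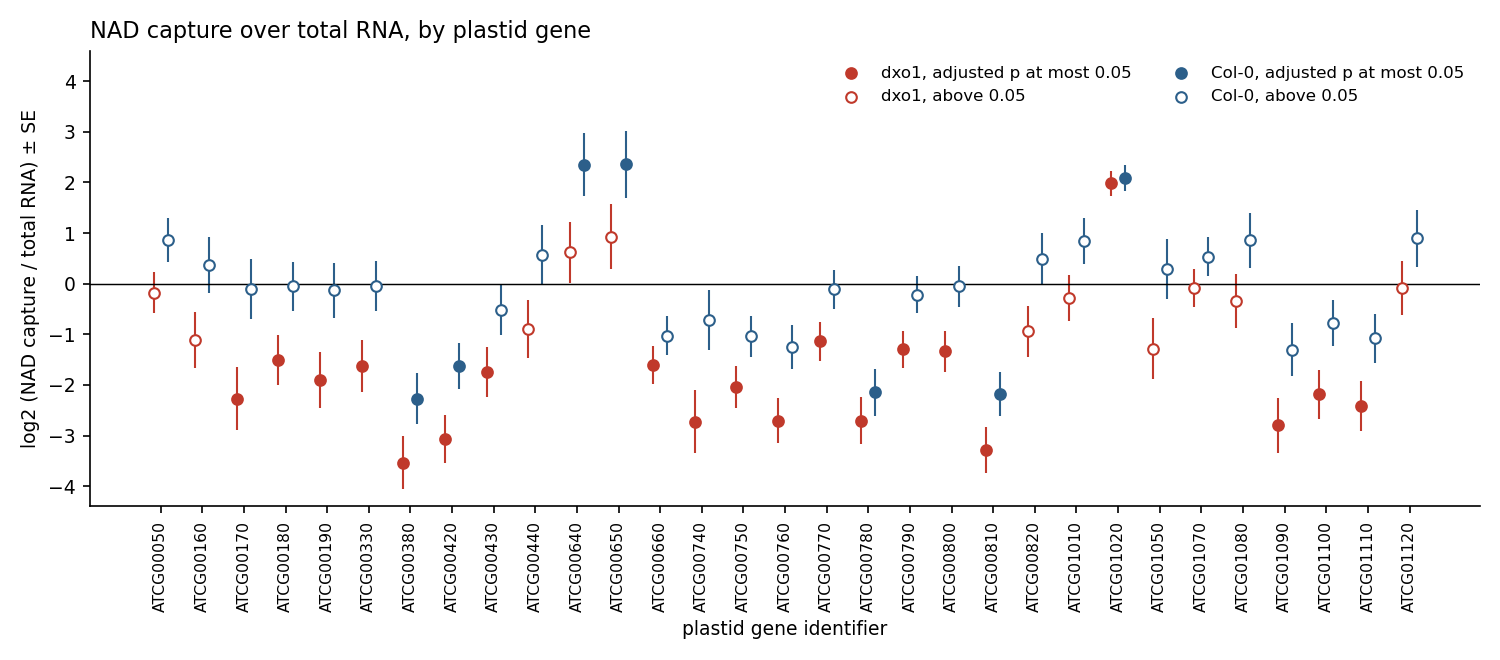
Log2 difference (± SE) of NAD capture over total RNA for the 31 tested genes, dxo1 (red) left of Col-0 (blue); filled points have an adjusted p of at most 0.05. Most dxo1 points lie below 0, while ATCG01020 is near 2 in both genotypes.

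The run from ATCG00740 to ATCG00840 was depleted in 8 of 9 tested genes in dxo1 and in 2 of 9 in Col-0. ATCG00740 had 164 and 125 CPM in dxo1 capture against 765 and 1149 CPM in dxo1 total RNA (-2.73 ± 0.63, adjusted p = 0.00774, edgeR). In Col-0 it had 872 and 153 CPM in capture against 834 and 848 CPM in total RNA, where the 2 capture libraries lay on either side of total RNA. In the run from ATCG00160 to ATCG00190, 3 of 4 genes were lower in dxo1 and 0 of 4 in Col-0. ATCG00330, with 309 and 344 CPM in dxo1 capture against 1026 and 994 CPM in dxo1 total RNA, was lower by a log2 difference of -1.63 ± 0.51 (adjusted p = 0.0302). In Col-0 it had 1841 and 436 CPM in capture against 1180 and 1165 CPM in total RNA, with a log2 difference of -0.05 ± 0.50.

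Of the plastid photosynthesis genes, 2 were higher and 14 lower of 33 in dxo1 (median -1.18), and 3 were higher and 4 lower in Col-0 (median 0.18). Of 38 nuclear-encoded plastid ribosomal proteins, 11 were higher and 3 lower in dxo1, against 8 higher and 3 lower in Col-0. RPL12-C was at 2.40 ± 0.25 in dxo1 and 1.86 ± 0.27 in Col-0. Of 21 polymerase partners, 4 were higher and 5 lower in dxo1 and 1 was higher and 4 lower in Col-0, with SIG2 lower in both (-1.91 ± 0.22 in dxo1, -1.84 ± 0.24 in Col-0). Of 20 NDH partners, 6 were higher and 2 lower in dxo1 and 3 were higher and 1 lower in Col-0, with CRR7 at 1.58 ± 0.35 and 1.24 ± 0.40.

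The Col-0 count rests on single libraries. Without the first Col-0 capture library the median was -1.45, against -1.51 in dxo1, and without the second it was 0.60. The number called rose in both cases, and fell when the one or the other Col-0 total RNA library was left out. In dxo1, leaving out any 1 of the dxo1 libraries lowered the number called. It rose only when a Col-0 capture library, which is not part of this contrast, was left out. The median stayed between -1.61 and -1.27. Without both replicate 1 libraries all calls were lost, while the median was -1.61. With library totals alone 88.9% of the calls over all genes were higher in dxo1 and 81.8% in Col-0, against 50.3% and 55.7% with TMM. The median of all genes was then 0.72 in dxo1 and 0.37 in Col-0, and that of the 31 genes -0.83 in dxo1.

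The fourth comparison set dxo1 against Col-0. In whole buds, fewer plastid-rich cells and less plastid RNA per cell would give the same difference between genotypes and cannot be told apart. In captured RNA all 31 genes were lower on average in dxo1, with a median log2 difference of -1.13, but 0 passed the threshold, where 0.756% of all genes did, 0.0677% as higher and 0.689% as lower. The 33 plastid photosynthesis genes were all lower too, with a median of -1.49 and 0 passing. Of the 31, 21 had an unadjusted p of at most 0.05 (edgeR), as did 3143 of the 17718 genes tested. DESeq2 called 3 of the 31, all lower. Simulated 2-fold changes were found in 14% of cases in this comparison. ATCG01050 was the most different, with 174 and 167 CPM in dxo1 capture against 1511 and 243 CPM in Col-0 capture (-2.35 ± 0.63, adjusted p = 0.105, edgeR). ATCG01020 had 56.5 and 59.5 CPM in dxo1 capture against 96.5 and 65.6 CPM in Col-0 capture (-0.46 ± 0.24, adjusted p = 0.354). Of the genes with most reads in their group of identifiers, ATCG00330 stood at -1.80 ± 0.52, ATCG00740 at -1.81 ± 0.61, ATCG01100 at -1.07 ± 0.47 and ATCG00780 at -0.24 ± 0.45, and only for ATCG00330 did the dxo1 and Col-0 libraries not overlap. The difference rested on 1 library. In Col-0 capture every one of the 31 genes was higher in replicate 1 than in replicate 2, by a median ratio of 3.91 and a range of 1.47 to 7.22, while the dxo1 libraries had a median ratio of 1.17. Without the first Col-0 library the median dxo1 minus Col-0 difference was near 0 (-0.0010), and without the second it was -1.93. Without the dxo1 replicate 1 libraries the median was -1.33 and 0 genes passed.

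**Figure D5:**
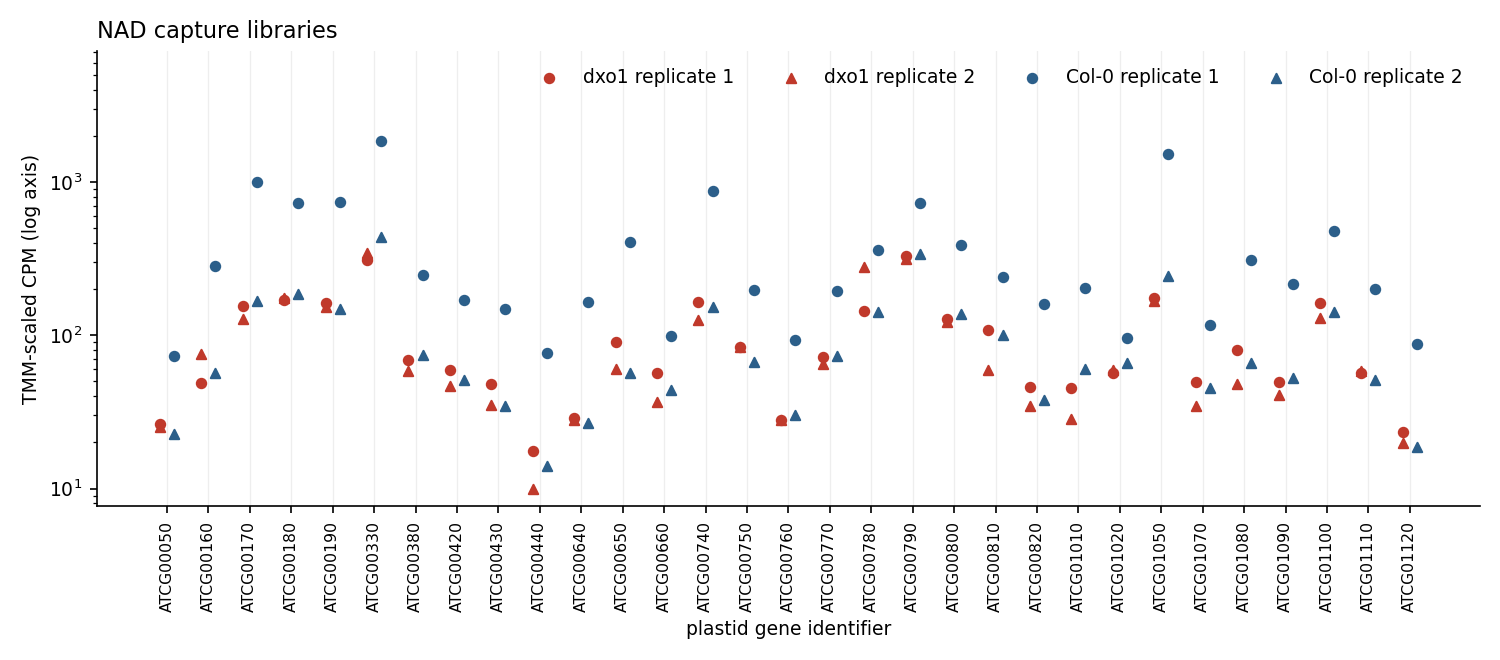
TMM-scaled CPM (log axis) of the 31 tested genes in the 4 NAD capture libraries, dxo1 (red) left of Col-0 (blue), circles replicate 1 and triangles replicate 2. The Col-0 replicate 1 circles lie above all other points for every gene, and the Col-0 replicate 2 triangle lies above both dxo1 points for 12 genes, between them for 10 and below both for 9.

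The genotypes' capture over total ratios were compared by the interaction of genotype and RNA kind. All 31 differences were negative, with a median of -1.35, but 0 passed (lowest adjusted p = 0.644, edgeR), and 0% of all 17718 genes tested did. Of the 31, 7 had an unadjusted p of at most 0.05, as did 1332 of all genes tested. The 33 plastid photosynthesis genes were all negative too, with a median of -1.40 and 0 passing. DESeq2 called 0 of the 31 as well. Simulated 2-fold changes were found in 3% of cases in this comparison. ATCG00740 had the second largest difference (-2.00 ± 0.84, adjusted p = 0.657, edgeR), and ATCG01020 the smallest (-0.10 ± 0.35, adjusted p = 0.969). Without the first Col-0 capture library the median was -0.10, and without the second it was -2.04. Without the dxo1 replicate 1 libraries it was -1.61 and 0 passed.

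In total RNA the genes did not differ detectably between dxo1 and Col-0 in the main fit. That fit found 26% of simulated 2-fold changes in genes drawn at random. It takes its spread also from the NAD capture libraries, among which the Col-0 pair differed widely. A fit of the total RNA groups alone called 2 of the 31. The median log2 difference was 0.08 and 0 of 31 passed, against 0.988% of all genes, 0.406% as higher and 0.581% as lower. An unadjusted p of at most 0.05 (edgeR) was reached by 0 of the 31 and by 2575 of the 17718 genes tested. DESeq2 called 0 of the 31. ATCG01050 had the lowest value, with 398 and 432 CPM in dxo1 against 825 and 600 CPM in Col-0 (-0.78 ± 0.60, adjusted p = 0.626, edgeR). ATCG01010 came next, at 43.0 and 48.0 CPM in dxo1 against 76.7 and 66.8 CPM in Col-0 (-0.66 ± 0.45, adjusted p = 0.572). For both genes, which were chosen after their values were seen, the dxo1 libraries lay below the Col-0 libraries. Most differences had the other sign, with 20 of 31 above 0 and the highest at 0.42. Of the 33 plastid photosynthesis genes, 7 were above 0 and 26 below, with 0 passing. ATCG01100 stood at 0.34 ± 0.45, ATCG00780 at 0.32 ± 0.44, ATCG00740 at 0.19 ± 0.58 and ATCG00330 at -0.21 ± 0.50. Without the dxo1 replicate 1 libraries the median was 0.28 and 0 genes passed.

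In mRNA, 7 of the 31 genes were higher in dxo1 and 0 were lower, against 30.1% of all genes called, 15.6% as higher and 14.5% as lower. The median log2 difference was 0.24, against 0.01 for all genes. An unadjusted p of at most 0.05 (edgeR) was reached by 14 of the 31 and by 8391 of all 19730 genes tested. ATCG00660 had the largest difference, at 6.41 and 8.59 CPM in dxo1 against 3.14 and 4.37 CPM in Col-0 (0.97 ± 0.25, adjusted p = 0.0276, edgeR). ATCG00380 had 16.4 and 14.8 CPM in dxo1 against 9.18 and 10.7 CPM in Col-0 (0.64 ± 0.15, adjusted p = 0.0199). ATCG00190 had 60.7 and 56.5 CPM in dxo1 against 40.9 and 38.4 CPM in Col-0 (0.57 ± 0.09, adjusted p = 0.00568). In each of these 3 both dxo1 libraries were above both Col-0 libraries. ATCG00160 (0.52 ± 0.14), ATCG00650 (0.56 ± 0.12), ATCG01090 (0.54 ± 0.15) and ATCG01110 (0.36 ± 0.08) were the other 4. The most read gene, ATCG00790, had 2061 and 1927 CPM in dxo1 and 1931 and 1984 CPM in Col-0, which overlap (0.03 ± 0.08). ATCG00740 (0.16 ± 0.09), ATCG00420 (0.02 ± 0.10) and ATCG00800 (0.02 ± 0.09) did not pass either. Nuclear-encoded plastid ribosomal proteins had 9 of 38 higher and 0 lower, led by PSRP4 (0.85 ± 0.09), and the nuclear NDH partners 3 higher and 2 lower of 20. Of 29 tested plastid photosynthesis genes, 1 was higher and 3 were lower. Leaving out the one or the other Col-0 mRNA library, 0 of the genes passed (edgeR; 14 had an unadjusted p of at most 0.05 with all libraries). Without the dxo1 replicate 1 library 15 passed, with a median of 0.31, and DESeq2 called 2.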

How the data were processed

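The deposited gene tables hold raw read counts per gene, with special entries for unassigned reads. Per the submitters' processing notes the authors used cutadapt, STAR 2.4.2a, HTSeq and the TAIR10 build, without settings; per the labels' protocols reads were 50 nt, single-end and strand-specific, and no source used here says whether counting used the strand. The special entries were left out of library sizes. The counts of small RNA deposited by the authors were read only to see that they list 0 plastid identifiers.

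edgeR 4.0.16 in R 4.3.3 was applied to the counts: filterByExpr (minimum count 10), TMM scaling, the two-sided quasi-likelihood test and Benjamini-Hochberg adjustment over all genes tested, at 0.05. Printed CPM are TMM-scaled within the libraries of a comparison, so 1 library has other values in another comparison; DXO1 and marker CPM use library totals. Reported differences are log2, and no gene lengths were available, so levels are not compared between genes. One fit held the 8 libraries of NAD capture and total RNA, and others held 8 of total RNA and mRNA, 4 of mRNA, and 6 of GMUCT and mRNA, with 4, 4, 2 and 3 residual degrees of freedom and 17718, 19628, 19730 and 20117 genes. This makes 9 comparisons.

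On simulated data with 200 changed genes, 4-fold changes were found in 40% of cases for the interaction, 72 to 89% for the other comparisons of capture and total RNA, and 86 to 97% elsewhere. The changed genes were drawn at random from all genes tested, so these rates are not those of the 36 genes. Changes of 2-fold were found in 3% of cases for the interaction, 14% for captured RNA and 26% for total RNA between genotypes. For capture over total RNA they were found in 22% of cases in dxo1 and 19% in Col-0, and elsewhere in 69 to 85%. The 36 genes and the gene lists were chosen with earlier results of these data known. Named genes were, in each of 5 groups of identifiers, the gene with most reads and the passing genes of largest and smallest difference whose libraries do not overlap; ATCG01020, ATCG00640, ATCG00650, ATCG00750, ATCG00820, ATCG01010, ATCG01050, ATCG01070, ATCG01110 and ATCG01120 were in part chosen after their values were seen, as were other genes named to describe a run of identifiers. From each list, up to 4 passing genes of lowest p could be named. Not every gene that these rules select is reported here. Replicate libraries were checked not to be copies (chi-square per degree of freedom from 2.26 to 33.7). Alternatives were other scalings, no filter, DESeq2 1.42.0, a replicate block, fits of 2 groups, mRNA in place of total RNA, and leaving out libraries. The SE come from the quasi-likelihood test and so include the estimated spread between libraries. Shares of reads are printed without intervals.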

Additional observations from a re-analysis of the deposited data

How the results depend on the processing

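Precision is limited by 2 libraries per group and by 1144896 to 3178702 gene counts in NAD capture. The total RNA over mRNA and GMUCT over mRNA counts stayed within 1.5 times of those reported under every alternative run. Leaving out 1 library gave 26 to 29 calls for total RNA over mRNA in dxo1 (median 1.82 to 2.28), 26 to 29 in Col-0 (median 2.23 to 2.37), and 28 to 30 for GMUCT over mRNA (median -1.74 to -1.58). It gave 8 to 26 calls for capture over total RNA in dxo1 (median -1.61 to -1.27), 2 to 24 in Col-0 (median -1.45 to 0.60), and 0 to 28 for the interaction (median -2.04 to -0.10). For dxo1 over Col-0 the median ran from -1.93 to -0.0010 in captured RNA. It ran from -0.10 to 0.28 in total RNA and from 0.19 to 0.31 in mRNA. The number called moved here too, most in captured RNA. ATCG00330 in Col-0 capture over total RNA ranged from -1.45 without the first Col-0 capture library to 0.64 without the second. Where a group was left with 1 library, that library was assumed to vary like the other groups.

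Without both dxo1 replicate 1 libraries, capture over total RNA in dxo1 had 0 calls, mRNA had 15 (median 0.31), and the GMUCT median was -1.48. With no filter on low counts, calls numbered 17 for capture over total RNA in Col-0, 7 for the interaction and 24 for captured RNA between genotypes. DESeq2 gave 3 for captured RNA and 2 for mRNA between genotypes, and a fit of the 2 groups alone gave 2 for capture over total RNA in Col-0 and 2 for total RNA between genotypes. With library totals alone, capture over total RNA in dxo1 had 13 calls (median -0.83), and the medians were 1.15 for total RNA over mRNA in dxo1, 1.42 in Col-0 and -1.72 for GMUCT over mRNA. ATCG00440 was then -0.39 in dxo1 and -0.012 in Col-0 for total RNA over mRNA, and ATCG00800 was -0.84 in dxo1. The cause was not tested. The shares of all genes called under these settings are not given here, so the counts show only how the calls moved.

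With mRNA in place of total RNA as the base of the capture, the direction turned in dxo1, and the Col-0 median rose. The share of all genes called with this base is not given here. In dxo1, 15 genes were then higher and 4 lower (median 1.30), with ATCG00180 at 3.65, ATCG00330 at 2.70, ATCG00380 at 2.69, ATCG01100 at 1.30 and ATCG01020 at -0.26. In Col-0, 17 were called, 16 higher and 1 lower (median 2.50), with ATCG00330 at 4.77, ATCG00380 at 4.58 and ATCG01100 at 2.50. The base differs here by construction, since most of these genes are lower in mRNA than in total RNA.

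Replicate numbers were not treated as pairs: with 2 pairs per comparison, the correlation of replicate differences across genes was between -0.002 and 0.17, except 0.56 for GMUCT and mRNA. With a replicate block the calls were 20 and 7 for capture over total RNA in dxo1 and Col-0, 0 for the interaction, captured RNA and total RNA between genotypes, 9 for mRNA, 28 and 29 for total RNA over mRNA in dxo1 and Col-0, and 29 for GMUCT over mRNA.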

Other observations

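Across the 8 NAD capture and total RNA libraries, the genes outside the 36 whose log2 CPM most resembled the mean of the 31 tested genes were EMB3012 (AT5G40480, Pearson r = 0.992), XIC (AT1G08730, 0.992), IQD1 (AT3G09710, 0.991), AT2G01010 (0.991) and AT5G56890 (0.988). These are descriptions over 8 libraries that fall into 4 groups and share their depth and composition. Between the 2 Col-0 capture libraries, nuclear ribosomal RNA (14.2% and 6.83%) and the summed share of the 36 genes (0.934% and 0.422%) were both higher in the first. Across assays the order of these shares differed. They are shares of library totals without TMM scaling, and the order on the TMM scale of the tests was not examined. The TMM factors were 1.35 and 1.36 in dxo1 capture, against 0.837 to 0.874 in total RNA. Total RNA had 5.52 to 5.89% ribosomal RNA with 0.817 to 1.10% for the 36 genes. The dxo1 capture libraries had 8.21 and 6.98% with 0.407 and 0.387%. The part of ribosomal RNA in the result was not tested.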
